A study of Mus musculus with 15 samples.

Results

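The proteasome genes of the liver were the 47 protein-coding genes, of 55450 genes in the deposited count table, whose symbols begin with Psma, Psmb, Psmc, Psmd, Psme, Psmf or Psmg and a digit. The 3 immunoproteasome genes Psmb8, Psmb9 and Psmb10 and the pseudogenes were left out. The rule used no measured value, but it was set with earlier results of these data known. The 47 genes lie on 16 chromosomes. RNA was sequenced from the livers of 15 female C57BL/6 mice, with 1 poly(A) library per mouse and 5 mice per group. Adult mice, named A1 to A5, started at an age of 6 months and were given corn oil, the vehicle. Old mice, named O1 to O5, started at 22 months and were given the same vehicle. PDX mice, named P1 to P5, also started at 22 months and were given protectin DX, a lipid mediator derived from docosahexaenoic acid, in corn oil at 30 ng per g of body weight. All groups were gavaged daily, for 9 weeks by the treatment protocol and for 8 weeks by the design text. All mice were female, and no young mice received protectin DX, so the treatment can be compared only in aged mice. The comparisons ask how aging changes liver transcripts (Old against Adult) and how treatment changes them in aged mice (PDX against Old).

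The proteasome degrades proteins tagged with ubiquitin. Its 20S core is a barrel of stacked rings, with alpha subunits (Psma genes) at the outer rings and beta subunits (Psmb genes) inside, of which Psmb5, Psmb6 and Psmb7 encode the proteolytic sites. The 19S cap unfolds substrates with a ring of ATPases (Psmc genes) and recognises and deubiquitinates them with non-ATPase subunits (Psmd genes), and core and cap together form the 26S particle. Dedicated chaperones assemble both, and alternative activators (Psme genes) can replace the cap. In the liver the particle turns over most short-lived and damaged proteins of hepatocytes, and its genes are known to be induced together by the transcription factor NRF1 (Nfe2l1) through antioxidant response elements upstream of them.

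By role, the members were 8 alpha ring genes, 4 catalytic and 4 structural beta ring genes, 6 ATPases, 11 non-ATPase cap subunits, 3 cap chaperones, 4 core chaperones and 6 genes of other activators and an inhibitor. The symbol rule also took Psmc3ip, a meiotic recombination factor that is no part of the proteasome. A low-count filter kept 15808 genes for testing, among them 46 of the 47 members. The exception was Psmb11, the beta subunit of the thymus, with 0 counts in 14 of the mice and 1 count in O5. Psma8, the alpha subunit of the testis, had 14 to 73 counts per mouse. The 31 subunit genes of the constitutive 26S particle (Psma1 to Psma7, Psmb1 to Psmb7, the 6 Psmc ATPases and the 11 Psmd subunits) are called the 26S subunit genes here.

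Counts per mouse summed to 22424383 to 36070835 for Adult mice, 25480180 to 29069346 for Old mice and 26113995 to 30139181 for PDX mice. Values are given as CPM, the counts of a gene relative to the library total, scaled between mice with TMM factors. These factors ranged from 0.8845 to 1.08 except in O2, where the factor was 1.331. O2 and O5 stood apart in marker genes of liver cells. Summed CPM of 8 hepatocyte markers, including albumin, was 133001 to 145218 in Adult mice, 110636 to 164608 in PDX mice and 53762 (O5) to 202281 (O1) in Old mice, with O2 at 77922. Summed CPM of 7 leukocyte markers was 51.9 to 79.9 in Adult mice, 124 to 284 in PDX mice, 734 in O2 and 82.8 to 178 in the other Old mice. Summed CPM of 5 stellate cell markers was 825 in O5 and 268 to 579 in the other mice. In whole-liver RNA, fewer cells of a type and less RNA per cell cannot be told apart.

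The sequence upstream of the members was searched because NRF1 acts through the antioxidant response element. RefSeq promoters of GRCm38.p6 were matched for 39 of the 47 members, and both strands of the 250 bases before each start were searched for the element's core, TGACNNNGC. It was found in 5 members (12.8%), Psmb5, Psmb6, Psmc6, Psmd12 and Psmd9, against 11.5% of 27025 genes. The CCAAT box bound by NF-Y, searched as CCAAT, was found in 14 members (35.9%) against 37.5% of all genes. A core of the interferon response element was also searched and was found in 3 members (7.69%), Psmb3, Psmd4 and Psmd9, against 3.46% of all genes. A match is a description and not a tested binding site. The 3 sequences below are shown because 2 belong to proteolytic subunits and the other to the chaperone gene whose level differed most between Old mice, a choice made after its values were seen. They read 5′ to 3′ on the gene's strand, and capitals mark the element's core. All 3 windows lie upstream of the RefSeq starts. As GENCODE M21 draws the genes, the end of the Psmb5 window lies inside its gene. The whole Psmd9 window also lies inside its gene, which runs from 123169413 to 123250131. The Psmb6 window lies upstream in both.

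Psmb5, chr14:54618014-54618062, minus strand, core 39 to 47 bases before the start: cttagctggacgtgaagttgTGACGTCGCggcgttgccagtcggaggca
Psmb6, chr11:70525328-70525356, plus strand, core 1 to 9 bases before the start: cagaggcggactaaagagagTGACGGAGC
Psmd9, chr5:123228139-123228187, plus strand, core 23 to 31 bases before the start: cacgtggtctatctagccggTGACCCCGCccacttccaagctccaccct

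In Adult liver the level per kilobase of exon, an approximate scale because exons of all transcripts of a gene are merged, spanned a 14.9-fold range over the 26S subunit genes. Psma3 had the lowest mean, 5.72 ± 0.54 CPM per kb (SD, n = 5), and Psmb4 the highest, 85.3 ± 4.51 (SD, n = 5), with a median over the 31 genes of 34.2. Proteolytic subunits lay in the upper part of this range, with 59.5 ± 4.43 CPM per kb for Psmb6, 59.0 ± 2.35 for Psmb5 and 41.4 ± 1.97 for Psmb7 (SD, n = 5 each), and the SDs of Psmb6 and Psmb5 overlapped. Chaperones were lower, from 3.58 ± 0.249 CPM per kb (SD, n = 5) for Psmg3 to 14.3 ± 1.29 (SD, n = 5) for Psmg1.

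In aged livers the mean levels of proteasome transcripts lay near those of Adult livers. With edgeR's quasi-likelihood test, 0 of the 46 members passed an adjusted p of 0.05 between Old and Adult, where 6.78% of all tested genes did (1072 of 15808). Of the members, 1 had an unadjusted p under 0.05 (2.17%), against 27.7% of all genes, and the smallest adjusted p was 0.105 (Psmd5). DESeq2 also called 0 members, and limma voom with sample weights called 6 (Psmb4, Psmb5, Psmc4, Psmc5, Psmd13 and Psmd14), where it called 14.7% of all genes. The fitted log2 fold change was above 0 in 31 members (67.4%) and below 0 in 15, where it was above 0 in 56.8% of all tested genes. Its median was 0.031 in members against 0.068 over all tested genes. The median size of the change without its sign was 0.099 in members and 0.31 over all genes, and the median standard error (SE) was 0.15 and 0.24. The 95% interval of the fold change lay within 1.41-fold in either direction for 25 of the 31 26S subunit genes and within 2-fold for all 31. The Old and Adult values overlapped in all 46 members, where 8.13% of all genes did not overlap. Leaving out A4 or O4 gave 1 member without overlap, Psmd5 and Psmd1 respectively. The share of all genes is not given for these smaller sets of mice.

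**Figure D1:**
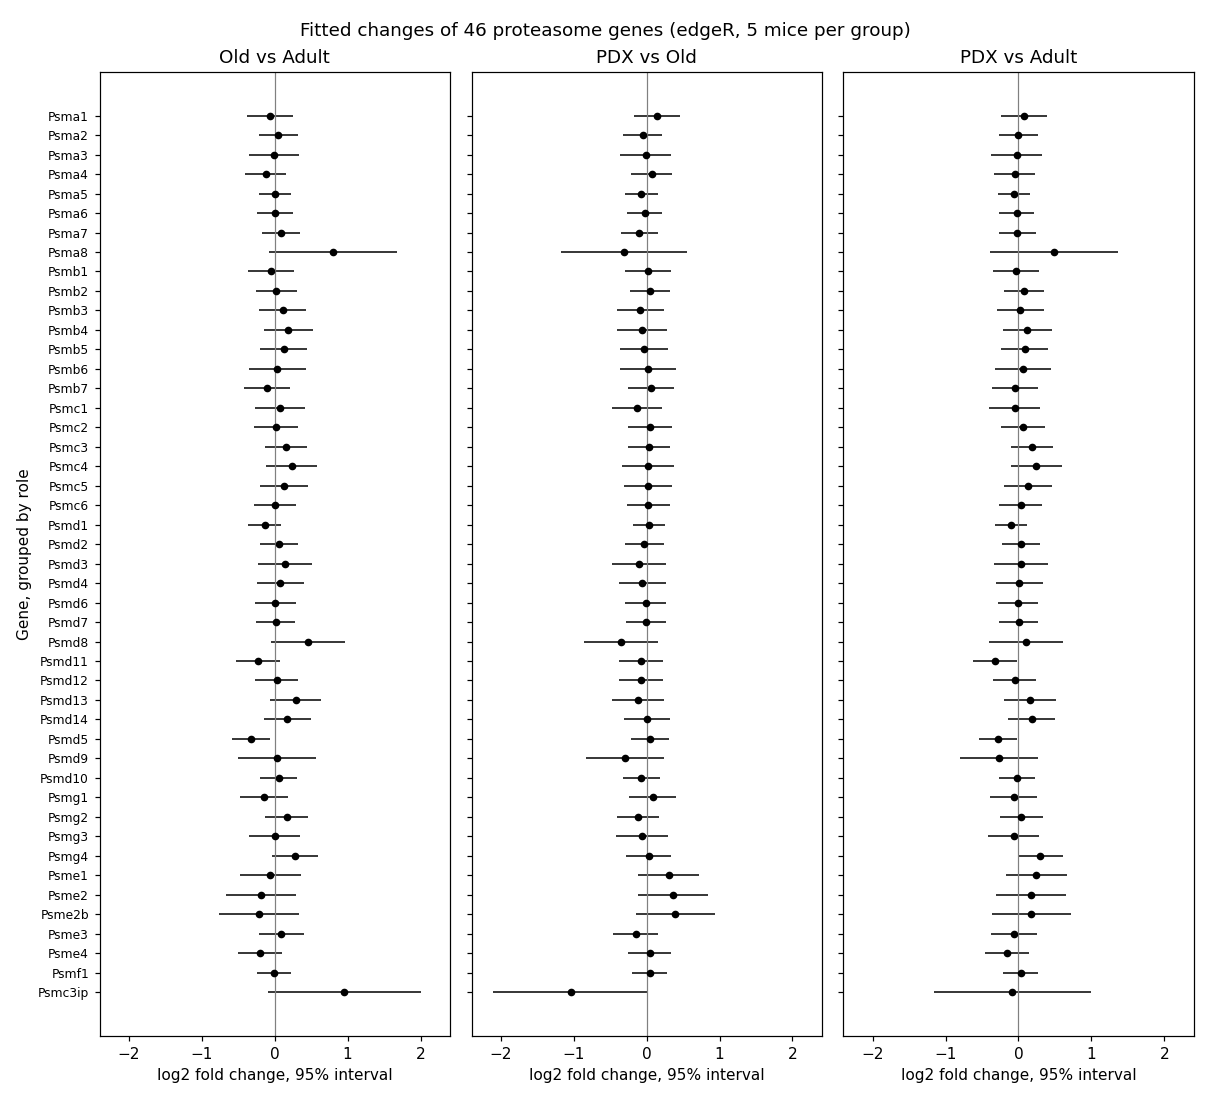
Fitted log2 fold changes (x axis) with 95% intervals of the 46 tested members (rows, grouped by role) for Old against Adult, PDX against Old and PDX against Adult, from edgeR with 5 mice per group. Most points lie close to 0, and the widest intervals belong to the low-count genes Psma8 and Psmc3ip.

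Treatment with protectin DX was not followed by a detectable change in any member. Between PDX and Old, 0 of the 46 members passed an adjusted p of 0.25, and 0.0% of all tested genes did. At an unadjusted p under 0.05 there were 0 members, against 5.28% of all genes, and the smallest adjusted p of a member was 0.793. DESeq2 called 0 members and limma voom called 0. The median log2 fold change was -0.013 in members and -0.070 over all genes. The 95% interval lay within 1.41-fold for 30 of the 31 26S subunit genes. No member was free of overlap, where 0.342% of all genes were, and without O2 the count was 1 (Psme2). That share is for the full groups, and the share without O2 is not given.

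Between PDX and Adult, 0 of the 46 members passed an adjusted p of 0.05, where 2.66% of all genes did (420 of 15808). An unadjusted p under 0.05 was found for 2 members, Psmd11 and Psmd5 (4.35%), against 20.6% of all genes, and DESeq2 called 0 members. The median log2 fold change was 0.019 in members and -0.014 over all genes. The values did not overlap in 3 members, Psmc4 and Psmg4 (higher in PDX) and Psmd5 (lower in PDX), where 19.9% of all genes did not overlap, 10.5% being higher and 9.34% lower in PDX. The count was 6 without A2, without P1 or without P5, and the share of all genes is not given for these smaller sets of mice. A few members passed in other fits. In a fit of only the 10 PDX and Adult mice, Psmc4, Psmd11, Psmd5, Psme1 and Psmg4 passed, where 29.6% of all genes did, and without O2 and O5, Psmd11, Psmd5 and Psme1 passed, where 24.6% did. With limma voom and sample weights, Psmc4, Psmd11, Psmd5, Psmd9 and Psmg4 passed, where 33.3% of all genes did. All 3 comparisons use the same 5 mice of each group, so that PDX against Adult is not independent of the others.

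Among the proteolytic subunits, Psmb5, which carries the chymotrypsin-like site, was at 54.0, 55.7, 50.3, 51.6 and 53.4 CPM in A1 to A5, 72.4, 39.1, 44.5, 72.3 and 60.0 CPM in O1 to O5 and 60.0, 52.5, 59.1, 52.7 and 56.9 CPM in P1 to P5. Psmb6, with the caspase-like site, was at 120, 118, 105, 101 and 112 CPM in A1 to A5, 163, 73.3, 104, 143 and 88.9 CPM in O1 to O5 and 129, 112, 108, 117 and 115 CPM in P1 to P5. Psmb7, with the trypsin-like site, was at 151, 144, 138, 142 and 133 CPM in A1 to A5, 174, 91.7, 120, 155 and 117 CPM in O1 to O5 and 153, 131, 134, 134 and 131 CPM in P1 to P5. In all 3 genes O1 was above every Adult mouse and O2 was below every other mouse, and O3 was below the Adult range in Psmb5 and Psmb7, whereas Adult and PDX mice overlapped within a narrow band. The fitted log2 fold changes between Old and Adult were 0.12 ± 0.15, 0.038 ± 0.18 and -0.11 ± 0.15 (± SE) for Psmb5, Psmb6 and Psmb7, with edgeR adjusted p of 0.643, 0.915 and 0.681. Between PDX and Old they were -0.036 ± 0.15, 0.024 ± 0.18 and 0.055 ± 0.15, with 95% intervals of -0.36 to 0.29, -0.36 to 0.41 and -0.26 to 0.37. Without O2 and O5 the Old to Adult changes of the 3 genes were 0.26, 0.305 and 0.091. The PDX to Old changes were then -0.16, -0.22 and -0.12.

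In the structural beta ring, Psmb4 was at 172, 179, 161, 157 and 162 CPM in A1 to A5, 246, 128, 154, 221 and 198 CPM in O1 to O5 and 211, 169, 178, 180 and 167 CPM in P1 to P5. Psmb3 was at 28.2, 28.6, 25.4, 22.2 and 26.6 CPM in A1 to A5, 35.0, 21.7, 20.4, 31.2 and 33.6 CPM in O1 to O5 and 31.1, 24.7, 25.7, 25.7 and 26.2 CPM in P1 to P5. For both genes O1, O4 and O5 were above all Adult mice and O2 and O3 were below them, so that the Old group lay on either side of the Adult range. The Old to Adult log2 fold change was 0.19 ± 0.16 (SE, edgeR adjusted p = 0.473) for Psmb4 and 0.11 ± 0.15 (SE, edgeR adjusted p = 0.667) for Psmb3. Without O2 and O5 the changes were 0.33 and 0.15.

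In the alpha ring, the 7 constitutive genes had Old to Adult log2 fold changes near 0, with the lowest in Psma4, at -0.12 ± 0.13 (SE, edgeR adjusted p = 0.573). Psma4 was at 90.1, 89.9, 85.7, 77.5 and 81.6 CPM in A1 to A5, 97.5, 62.8, 73.4, 93.5 and 62.8 CPM in O1 to O5 and 88.4, 77.2, 80.2, 82.0 and 81.6 CPM in P1 to P5, with O2 and O5 at the bottom and O1 and O4 above every Adult mouse. The alpha subunit of the testis, Psma8, was at 0.703, 1.44, 0.684, 1.02 and 0.402 CPM in A1 to A5, 1.91, 2.14, 1.28, 0.743 and 1.3 CPM in O1 to O5 and 1.74, 0.763, 1.42, 1.54 and 0.482 CPM in P1 to P5. Its groups overlapped, and its log2 fold change of 0.79 ± 0.41 (SE) between Old and Adult did not pass (edgeR adjusted p = 0.222). Psma5 had the most even level among Old mice, 12.4 to 14.7 CPM, beside 12.8 to 15.1 CPM in Adult mice.

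All 6 ATPase genes of the cap had Old to Adult log2 fold changes above 0, from 0.0070 to 0.23, and 0 of the 6 passed. Of all tested genes, 56.8% were above 0. The 6 genes come from the same libraries and are not separate observations. Psmc4, the largest of them, was at 102, 103, 89.6, 83.9 and 92.8 CPM in A1 to A5, 143, 74.8, 81.3, 129 and 125 CPM in O1 to O5 and 127, 112, 106, 109 and 104 CPM in P1 to P5. Every PDX mouse was above every Adult mouse, and the Old mice split, with 3 above and 2 below the Adult range. Its log2 fold change was 0.23 ± 0.17 (SE, edgeR adjusted p = 0.389) between Old and Adult and 0.25 ± 0.17 (SE, edgeR adjusted p = 0.426) between PDX and Adult. With total counts as the only scaling, the PDX and Adult values of Psmc4 overlapped. Psmc3 was at 129, 142, 125, 131 and 136 CPM in A1 to A5, 184, 107, 131, 162 and 151 CPM in O1 to O5 and 172, 149, 143, 151 and 137 CPM in P1 to P5. O1, O4 and O5 were above all Adult mice, and 4 of the 5 PDX mice were as well. The log2 fold change of Psmc3 was 0.15 ± 0.14 (SE, edgeR adjusted p = 0.503) between Old and Adult. Without O2 and O5 the Old to Adult changes of Psmc4 and Psmc3 were 0.33 and 0.27.

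Of the 11 non-ATPase cap subunits, 9 had an Old to Adult log2 fold change above 0, as had 56.8% of all tested genes, 2 were below, and 0 passed. Psmd8, a lid subunit, was at 95.1, 109, 95.4, 93.6 and 98.4 CPM in A1 to A5, 135, 90.2, 85.8, 109 and 253 CPM in O1 to O5 and 121, 101, 110, 94.7 and 101 CPM in P1 to P5. O5 alone was far above the rest, with O1 next, while O2 and O3 were below the Adult range. The log2 fold change between Old and Adult was 0.45 ± 0.24 (SE, edgeR adjusted p = 0.228), and without O5 it was 0.094. Psmd13, another lid subunit, was at 73.5, 80.6, 74.0, 69.8 and 66.5 CPM in A1 to A5, 102, 59.8, 64.8, 100 and 117 CPM in O1 to O5 and 96.1, 77.9, 79.1, 78.1 and 76.5 CPM in P1 to P5. O1, O4 and O5 were above all Adult mice and O2 and O3 below them, and the log2 fold change was 0.29 ± 0.17 (SE, edgeR adjusted p = 0.282). A processed pseudogene, Gm15542, overlaps Psmd13 on its strand and held up to 1622 counts in a mouse, so that the assignment of reads is uncertain. Likewise Psma2 overlaps AW209491, which held up to 647 counts.

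Psmd11, a lid subunit that contacts the core, was the 26S subunit gene that stood lowest relative to the Adult mean in 9 of the 10 aged mice. The same held in the Adult mouse A4, where Psmd11 was at -0.356 on the log2 scale. The SD of log2 CPM of Psmd11 among Adult mice was 0.208, beside a median of 0.0952 over the 26S subunit genes. It was at 113, 112, 101, 79.3 and 102 CPM in A1 to A5, 84.9, 63.6, 77.6, 92.8 and 112 CPM in O1 to O5 and 81.4, 79.5, 80.7, 81.5 and 84.4 CPM in P1 to P5. The PDX mice lay in a narrow band near the lowest Adult mouse, A4, and the groups overlapped. The log2 fold change was -0.24 ± 0.14 (SE, edgeR adjusted p = 0.295) between Old and Adult and -0.32 ± 0.14 (SE, edgeR adjusted p = 0.22) between PDX and Adult. In the per-mouse values, the exception among aged mice was O5, whose lowest gene was Psma1.

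The cap chaperones hold ATPase subunits until the cap is complete. Psmd5 was at 44.4, 39.4, 42.4, 36.9 and 44.4 CPM in A1 to A5, 36.2, 30.0, 37.3, 38.3 and 24.1 CPM in O1 to O5 and 34.3, 36.7, 31.7, 34.1 and 34.7 CPM in P1 to P5. Every PDX mouse was below every Adult mouse, and among Old mice O2 and O5 were lowest while O3 and O4 lay within the Adult range. It fell short of the threshold with a log2 fold change of -0.32 ± 0.12 (SE, edgeR adjusted p = 0.105) between Old and Adult and of -0.28 ± 0.12 (SE, edgeR adjusted p = 0.217) between PDX and Adult. Without O2 and O5 the Old to Adult change was -0.14. Psmd10, also known as gankyrin, was at 13.5, 15.5, 15.6, 13.2 and 13.1 CPM in A1 to A5, 15.8, 18.4, 12.2, 12.9 and 14.3 CPM in O1 to O5 and 14.4, 13.3, 14.2, 13.7 and 14.4 CPM in P1 to P5. Its highest value was in O2, whose 26S subunit genes were low, and its Old to Adult log2 fold change was 0.053 ± 0.12 (SE, edgeR adjusted p = 0.806). Psmd9, whose RefSeq promoter holds the core letters shown above, was at 35.3 to 44.9 CPM in Adult mice and 28.3 to 39.2 CPM in PDX mice. It was at 23.8 to 35.8 CPM in the Old mice other than O5, which was at 81.0 CPM. Its log2 fold change was 0.036 ± 0.25 (SE, edgeR adjusted p = 0.943) between Old and Adult.

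Of the core chaperones, Psmg4 was at 6.32, 5.78, 5.56, 5.01 and 5.11 CPM in A1 to A5, 8.62, 7.2, 5.2, 6.06 and 6.53 CPM in O1 to O5 and 7.81, 6.58, 6.91, 6.54 and 6.4 CPM in P1 to P5. All PDX mice were above all Adult mice, by a narrow margin between P5 and A1, and the Old mice overlapped both groups. The log2 fold change was 0.30 ± 0.15 (SE, edgeR adjusted p = 0.261) between PDX and Adult. With total counts as the only scaling, the PDX and Adult values overlapped. Psmg2 was at 8.77, 11.6, 8.62, 9.04 and 9.93 CPM in A1 to A5, 12.5, 9.13, 9.99, 10.3 and 11.7 CPM in O1 to O5 and 10.8, 7.91, 9.21, 10.3 and 11.1 CPM in P1 to P5, with overlap of all groups and an Old to Adult log2 fold change of 0.16 ± 0.14 (SE, edgeR adjusted p = 0.466).

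Old mice differed widely in the PA28 activator, whose alpha and beta subunits (Psme1 and Psme2) are induced by interferon gamma and favour the production of antigenic peptides. The SD of log2 CPM among Old mice was 0.837 for Psme2b, the largest of the 46 members, 0.715 for Psme2 and 0.56 for Psme1, beside 0.738 for Psmc3ip, 0.659 for Psmd9, 0.633 for Psmd8 and 0.566 for Psma8. Psme1 was at 80.6, 79.0, 90.4, 69.5 and 77.9 CPM in A1 to A5, 85.3, 102, 80.0, 76.2 and 37.2 CPM in O1 to O5 and 79.6, 99.7, 93.4, 97.9 and 101 CPM in P1 to P5. Psme2 was at 21.6, 22.1, 23.6, 19.8 and 19.7 CPM in A1 to A5, 21.1, 25.1, 19.3, 20.7 and 7.18 CPM in O1 to O5 and 23.4, 22.5, 25.8, 23.8 and 24.4 CPM in P1 to P5. Psme2b, a retrogene nearly identical to Psme2, was at 61.2, 62.7, 65.7, 54.9 and 63.6 CPM in A1 to A5, 70.4, 69.8, 52.7, 54.6 and 17.3 CPM in O1 to O5 and 62.9, 67.7, 68.4, 74.3 and 75.1 CPM in P1 to P5. O5 was far below every other mouse in all 3 genes, while O2 was the highest Old mouse in Psme1 and Psme2. Because Psme2 and Psme2b share most of their sequence, the split of reads between them is uncertain. Between PDX and Old the log2 fold changes were 0.31 ± 0.20, 0.36 ± 0.23 and 0.40 ± 0.26 (± SE) for Psme1, Psme2 and Psme2b, each with an edgeR adjusted p of 0.793. Without O5 the changes were 0.13, 0.15 and 0.17.

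The low PA28 values of O5 stood beside the lowest values of the immunoproteasome genes. The summed CPM of Psmb8, Psmb9 and Psmb10, the interferon-induced proteolytic subunits that replace Psmb5, Psmb6 and Psmb7, was 110 to 130 in Adult mice, 158 to 204 in PDX mice, 23.9 in O5, 308 in O2 and 114 to 137 in the other Old mice, and 0 of the 3 genes passed in any comparison. In O5, macrophage markers summed to 277 CPM and T cell markers to 1.84 CPM, each the lowest of the 15 mice, and in O2 to 2660 and 156 CPM, each the highest. Other immune lists of O5 lay above the Adult maxima. Leukocyte markers were at 82.8 CPM against 79.9, neutrophil markers at 44.2 against 6.2, and B and plasma cell markers at 12.7 against 10.2. Its leukocyte and B and plasma cell sums were still the lowest of the Old mice. The part of these cells in the PA28 and immunoproteasome values was not tested. The nuclear activator PA28 gamma (Psme3) did not share the pattern of Psme1 in O5, with 103 CPM in O5 and 52.3 to 73.3 CPM in the other mice. Psme4, the activator PA200 known from spermatogenesis and DNA repair, was at 95.8, 78.0, 86.3, 89.5 and 79.4 CPM in A1 to A5, 74.6, 65.0, 86.0, 91.7 and 56.6 CPM in O1 to O5 and 85.2, 90.5, 64.9, 72.7 and 71.1 CPM in P1 to P5, with an Old to Adult log2 fold change of -0.20 ± 0.14 (SE, edgeR adjusted p = 0.382).

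**Figure D2:**
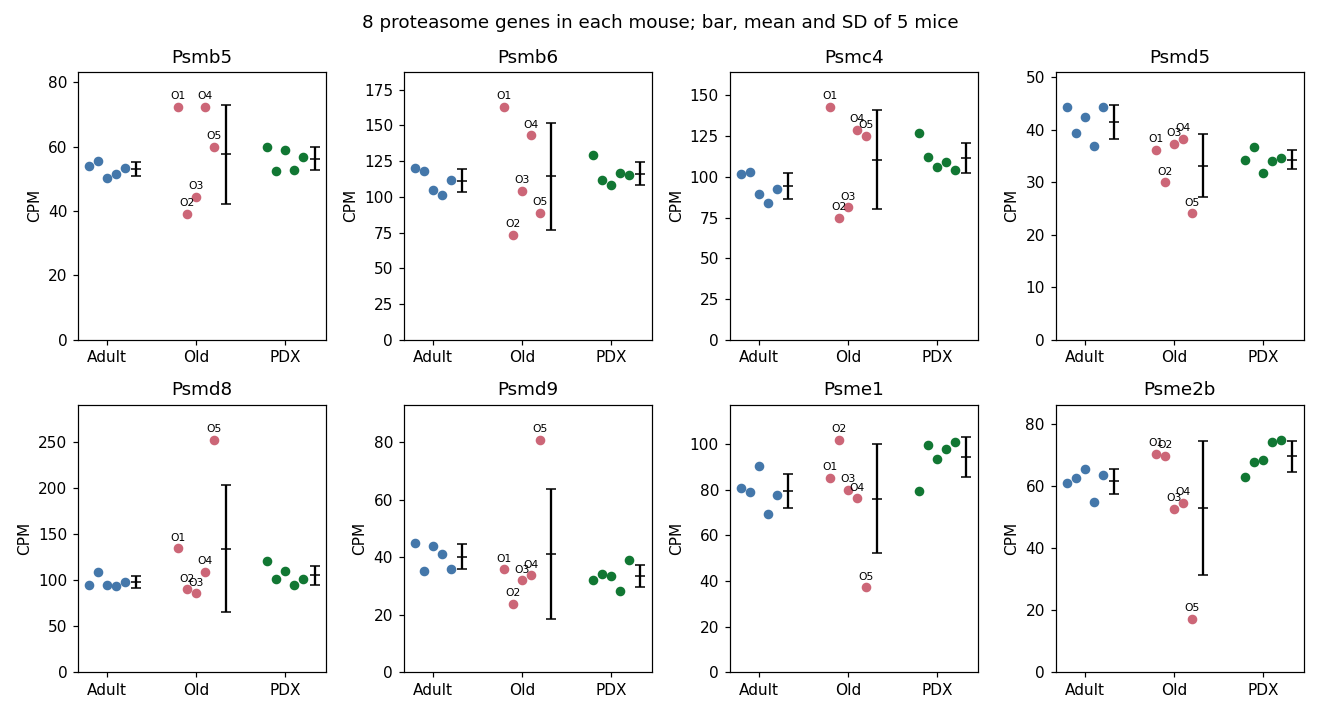
CPM (y axis, from 0) of 8 members in each mouse by group (x axis), with Old mice named and the mean ± SD of 5 mice as black bars. Old mice spread on either side of the Adult range for Psmb5, Psmb6 and Psmc4, and O5 is highest for Psmd8 (253 CPM) and Psmd9 (81.0 CPM) and lowest for Psme1 (37.2 CPM) and Psme2b (17.3 CPM).

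The recombination factor Psmc3ip was at 0.337, 0.458, 0.0456, 0.329 and 0.631 CPM in A1 to A5, 0.552, 1.55, 0.641, 0.446 and 0.361 CPM in O1 to O5 and 0.395, 0.281, 0.284, 0.286 and 0.482 CPM in P1 to P5. O2 alone was above 1 CPM, and counts per mouse were 1 to 53. Its log2 fold change was 0.96 ± 0.49 (SE, edgeR adjusted p = 0.218) between Old and Adult and -1.04 ± 0.50 (SE, edgeR adjusted p = 0.793) between PDX and Old, and without O2 the changes were 0.44 and -0.53. Proliferation markers were also highest in O2, at 133 CPM against 3.78 to 17.0 CPM in the other mice. P2 had the next highest marker sum, 17.0 CPM, and a low Psmc3ip value, 0.281 CPM. The part of proliferating cells was not tested.

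The groups differed in how far their mice lay apart. The median SD of log2 CPM over the 46 members was 0.105 in Adult mice, 0.355 in Old mice and 0.115 in PDX mice. The SD was larger among Old mice than in either other group in 42 of the 46 members (91.3%), and the same held for 84.4% of all tested genes, whose median SDs were 0.205, 0.525 and 0.227. Without O2 and O5 the median SD of the members among Old mice was 0.262, and that of all genes was 0.277.

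**Figure D3:**
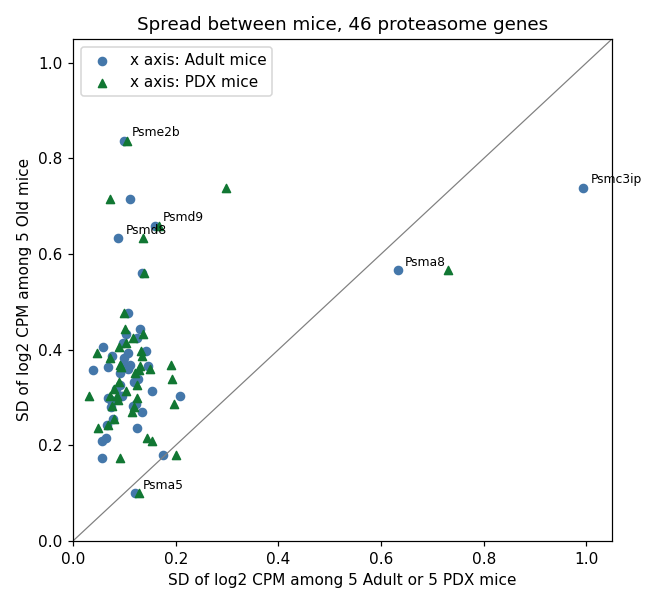
SD of log2 CPM among the 5 Old mice (y axis) against the SD among the 5 Adult mice (circles) or the 5 PDX mice (triangles), 1 pair of symbols for each of the 46 members, with a line of equality. Nearly all symbols lie above the line, and Psma5, Psma8 and Psmc3ip are among those near or below it.

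Most 26S subunit genes moved together within an Old mouse. The median over the 31 genes of the log2 difference from the Adult mean was 0.301 in O1 and 0.25 in O4, and -0.337 in O2 and -0.21 in O3. In O5 the median was 0.135, but the genes scattered, with an interquartile range of 0.566 against 0.25 or less in every other mouse. Among PDX mice the medians lay between -0.0393 and 0.0133, except 0.179 in P1. O1 was above all Adult mice in 28 of the 31 genes and O4 in 29, whereas O2 was below all Adult mice in 30 and O3 in 24. P1 was above all Adult mice in 24 of the 31. The share of all genes outside the Adult range in each mouse is not given, so these counts cannot be set against a background. O2 had the lowest value of all 15 mice in 23 of the 31 genes (74.2%), against 12.4% of all tested genes, and O1 had the highest in 17 (54.8%), against 10.4%.

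The place of several aged mice depended on the scaling, that of O2 most. With total counts as the only scaling, chosen after the data were seen, the median of O2 turned from -0.337 to 0.0986, and O2 was above all Adult mice in 14 genes and below them in 4. The medians of O1, O3, O4 and O5 were then 0.149, -0.126, 0.165 and 0.22 and kept their signs. O1 was above all Adult mice in 20 genes in place of 28, and O4 in 22 in place of 29. O3 was below all Adult mice in 15 genes in place of 24. Among PDX mice, the median of P3 turned from -0.0344 to 0.1, with 15 genes above all Adult mice in place of 5, and that of P2 from 0.0133 to -0.0697, with 13 genes below all Adult mice in place of 6. P5 turned from 0.00166 to -0.0241, and P1 and P4 kept their signs at 0.161 and -0.0487. P1 was then above all Adult mice in 21 genes in place of 24. O2 also stood apart in the leukocyte and hepatocyte marker sums given above, and the part of these cells was not tested.

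Summed over the 31 genes, 26S subunit transcripts were at 2893 ± 158 CPM in Adult mice, 3018 ± 592 CPM in Old mice and 2954 ± 188 CPM in PDX mice (SD, n = 5 each). With total counts only, the sums were 2842 ± 123, 3079 ± 294 and 2903 ± 226 CPM (SD, n = 5 each). The Old mice ranged from 2239 CPM in O2 to 3561 CPM in O1, a range that held those of the other groups.

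**Figure D4:**
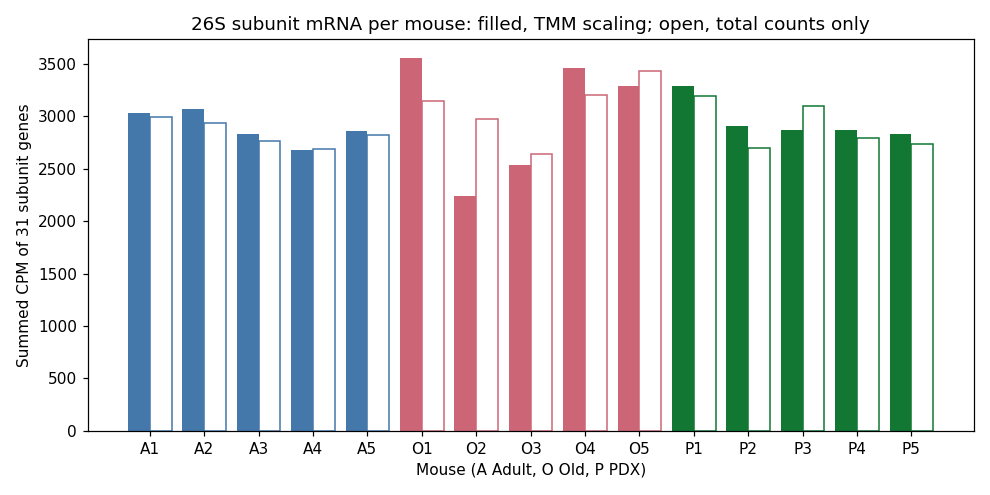
Summed CPM of the 31 constitutive 26S subunit genes (y axis, from 0) in each of the 15 mice (x axis), with TMM scaling (filled bars) and with total counts only (open bars). O2 has the lowest filled bar, at 2239 CPM, and an open bar of 2974 CPM within the range of the other mice.

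The ratio of summed core to summed cap transcripts was 0.659 ± 0.00895 in Adult mice, 0.633 ± 0.0717 in Old mice and 0.652 ± 0.0179 in PDX mice (SD, n = 5 each), and it does not depend on the scaling between mice. O5 had the lowest ratio, 0.513, and O1 the highest, 0.706. Relative to the median of its own 26S subunit genes, O5 was high in some cap subunits and low in others. The difference was 0.544 on the log2 scale for Psmd13, 0.513 for Psmd3 and 0.4 for Psmc1. It was largest for Psmd8, which was 1.37 above its Adult mean. The cap subunits Psmc2 (-0.343), Psmd1 (-0.286) and Psmc5 (-0.169) were low, and Psmc6, Psmd2 and Psmd11 lay near the median. O5 was also low in the core genes Psma1 (-0.732), Psma4 (-0.57), Psmb6 (-0.46) and Psmb7 (-0.406), and in the cap deubiquitinase Psmd14 (-0.421). Not every core gene was low in O5, since Psma7 was at 0.269 and Psma2 at 0.162. The hepatocyte marker sum of O5 was the lowest of the 15 mice and its stellate marker sum the highest. O2 came next in both, at 77922 and 579 CPM, and had a core to cap ratio of 0.645. The part of these cells was not tested. O5 also had the highest frailty index of the labels, 0.56, against 0 to 0.33 in the other mice. By positive frailty criteria, O5 was level with O4 and P5 at 4, and the ratios of O4 and P5 were 0.646 and 0.664. A link with frailty was not tested.

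**Figure D5:**
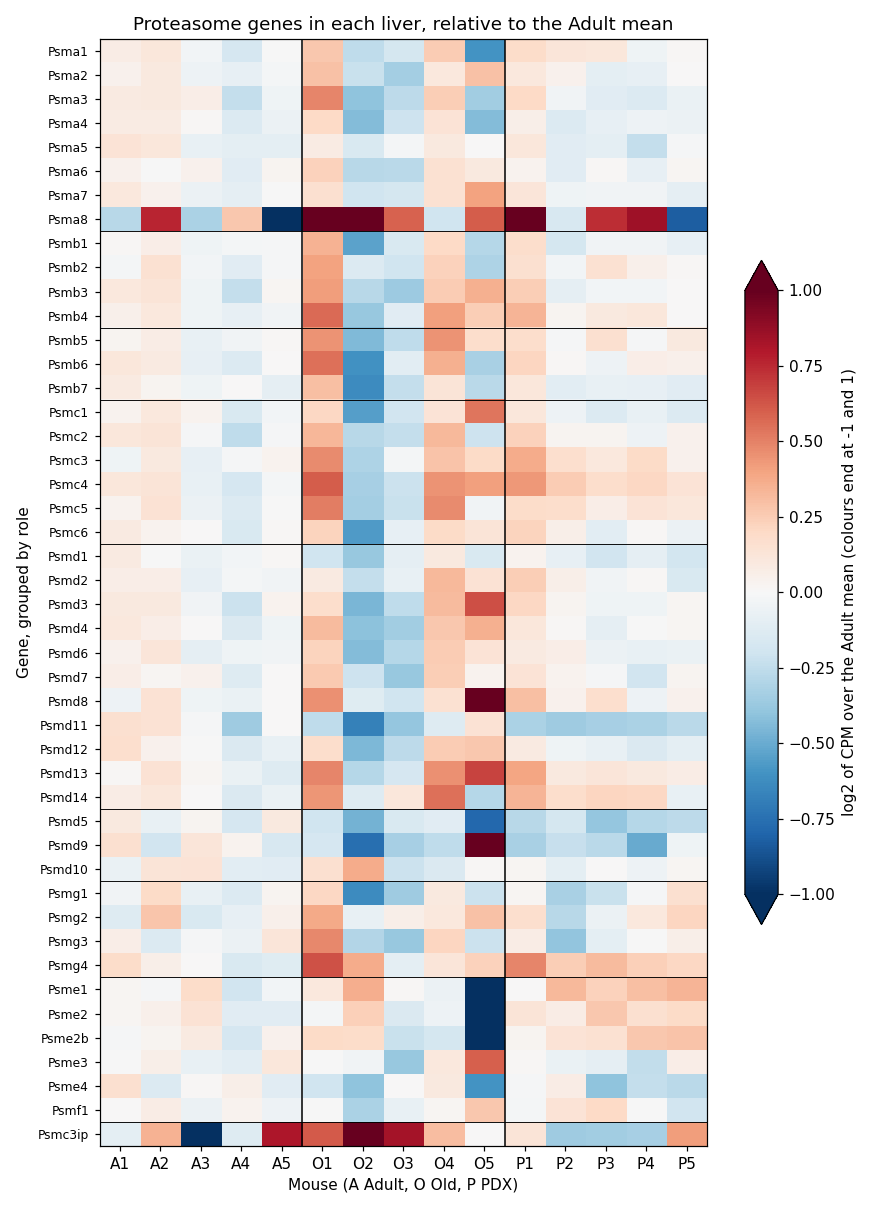
Log2 of CPM over the Adult mean for the 46 tested members (rows, grouped by role) in each of the 15 mice (columns), with red for higher, blue for lower and colours ending at -1 and 1. Columns O1 and O4 are mostly red, O2 and O3 mostly blue and O5 mixed, while Adult and PDX columns are pale, with P1 the reddest of the PDX mice.

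Genes that work with the proteasome but carry other symbols were counted by list. Of 12 further 26S parts and assembly factors tested, 0 passed in any comparison, and the median log2 fold change was -0.11 between Old and Adult, -0.075 between PDX and Old and -0.12 between PDX and Adult. Of 11 genes for the transcription of proteasome genes, 1 passed between Old and Adult, where 6.78% of all tested genes did, so that the count is near the background. This was Nfyb, a subunit of the CCAAT-binding factor NF-Y, at 40.9, 42.7, 40.2, 37.4 and 45.8 CPM in A1 to A5, 32.7, 27.5, 34.3, 29.9 and 20.3 CPM in O1 to O5 and 24.7, 32.0, 33.8, 28.8 and 38.1 CPM in P1 to P5. All Old mice were below all Adult mice, as 4.48% of all genes were (log2 fold change -0.51 ± 0.15, SE, edgeR adjusted p = 0.0468). Nfe2l1, which encodes NRF1, was at 207, 169, 177, 163 and 184 CPM in A1 to A5, 115, 144, 176, 147 and 113 CPM in O1 to O5 and 153, 174, 148, 168 and 158 CPM in P1 to P5. Its Old to Adult log2 fold change was -0.37 ± 0.13 (SE, edgeR adjusted p = 0.0883), with O3 within the Adult range and the other Old mice below it. Of 21 genes for the supply, activation and delivery of ubiquitin, 1 passed between Old and Adult, also near the background of 6.78%. This was Ube2r2, a ubiquitin-conjugating enzyme, at 135, 130, 136, 121 and 140 CPM in A1 to A5, 106, 76.3, 100, 101 and 87.2 CPM in O1 to O5 and 90.9, 91.2, 98.6, 96.9 and 119 CPM in P1 to P5. All Old mice were below all Adult mice here too (log2 fold change -0.49 ± 0.12, SE, edgeR adjusted p = 0.028). No gene of these lists passed between PDX and Old or between PDX and Adult.

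Several marker lists of other cells held genes past the threshold. The share of all tested genes that passed was 6.78% between Old and Adult and 2.66% between PDX and Adult. Between Old and Adult, 7 of 7 tested neutrophil and myeloid progenitor markers, 2 of 7 leukocyte, 4 of 5 B and plasma cell, 2 of 5 stellate and 1 of 4 proliferation markers rose, and 2 of 8 hepatocyte markers (Cyp2e1 and Ass1) fell. None of the 6 macrophage, 5 T cell, 4 erythroid, 4 endothelial or 4 cholangiocyte markers passed in edgeR's test. The neutrophil list summed to 2.5 to 6.2 CPM in Adult mice, 19.4 to 256 CPM in Old mice and 40.6 to 198 CPM in PDX mice, and Elane and Ctsg were at 0 counts in at least 1 mouse. Between PDX and Adult, 3 neutrophil markers and 1 B and plasma cell marker rose and Cyp2e1 fell, and between PDX and Old 0 markers passed.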

How the data were processed

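The authors aligned paired reads of 50 bases from strand-specific poly(A) libraries to mm10 with STAR 2.6.0c and counted unique proper pairs per non-mitochondrial Ensembl gene on its strand with featureCounts (Subread 1.6.2). They deposited these counts without normalization, with 1 column per mouse and no pooling. Log2-scale values from the variance stabilizing transformation of DESeq2 1.23.10, also deposited by the authors, were not used here. Of 55450 gene IDs, 55104 received a symbol from GENCODE M21 (GRCm38).

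Counts were filtered with filterByExpr (minimum count 10, minimum total 15) and tested with the two-sided quasi-likelihood test of edgeR 4.0.16 (R 4.3.3, limma 3.58.1), with TMM factors and all 15 mice in 1 fit by group. P-values were adjusted over 15808 genes by the Benjamini-Hochberg method, and called under 0.05, or under 0.25 for PDX against Old. SEs were taken from the fold change and the F statistic. Log2 CPM used a prior count of 2. The fitting steps were tested on simulated data. Alternatives were DESeq2 1.42.0, limma voom with sample weights, other scalings, no filter, fits of the 10 mice compared, a replicate block, and fits without O2 and O5 or without each mouse. Scaling by total counts only was chosen after the data were seen.

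Members, gene lists and the rule for named genes were chosen with earlier results of these data known. Values in every mouse are given for 21 members: the proteolytic subunits, in each role the 2 with the smallest adjusted p between Old and Adult, the 2 largest rises and falls in each comparison, the 3 smallest p between PDX and Old, and the 3 largest SDs among Old mice. Each mouse gave 1 library, and the depths are given with the results. The mice were euthanized in batches that the sources used here do not give per mouse, and values within batches are therefore not given.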

Additional observations from a re-analysis of the deposited data

Results flagged for a closer look

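Each member's values were examined in each group of 5 mice for a mouse at 1 end whose gap to the nearest other exceeded 0.71 of the group's range, Dixon's 95% limit. Of 138 such groups, 7 were past it (5.07%), and chance gives about 1 in 20. In the PDX group, P1 was the highest mouse in 5 members, which are not independent because they come from 1 library. Psma7 was at 125 CPM in P1 and 108 to 112 CPM in the other PDX mice, and Psmb7 was at 153 CPM and 131 to 134 CPM. Psmb3 was at 31.1 CPM in P1 and 24.7 to 26.2 CPM in the others. Psmd13 was at 96.1 CPM and 76.5 to 79.1 CPM, and Psmd3 was at 142 CPM and 120 to 126 CPM. In the Old group, Psmd9 was at 81.0 CPM in O5 and 23.8 to 35.8 CPM in the others. Psmc3ip was at 1.55 CPM in O2 and 0.361 to 0.641 CPM in the other Old mice.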

How the results depend on the processing

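The number of members past the threshold was 0 in all 3 comparisons under DESeq2, RLE, upper-quartile and total-count scaling, no filter and each fit without 1 mouse. It was 6 between Old and Adult (Psmb4, Psmb5, Psmc4, Psmc5, Psmd13 and Psmd14) and 5 between PDX and Adult with limma voom and sample weights, 5 between PDX and Adult with only the 10 mice compared, and 3 between PDX and Adult without O2 and O5. All-gene calls rose as well, to 2324 and 5271 with voom, 4529 with the 10 mice and 4004 without O2 and O5, beside 1072 between Old and Adult and 420 between PDX and Adult. DESeq2 called 2605 and 1388 genes in these comparisons, and the fit of the 10 Old and Adult mice called 105. The cause of these differences was not tested. Named members that crossed the threshold in these fits kept their direction. For named members that did not pass, the sign of the fold change differed in 4, 9 and 1 of 21 with voom, in 1, 6 and 0 with total counts only, in 4, 8 and 0 without O2 and O5, in 2, 7 and 0 without O2 and in 3, 5 and 0 without O5, for Old against Adult, PDX against Old and PDX against Adult. Members without overlap numbered 1 between Old and Adult (Psmc3) and 1 between PDX and Adult (Psmd5) with total counts only, and 1 between PDX and Old (Psme2) without O2 and O5. Without each mouse in turn they ranged from 0 to 1, from 0 to 1 and from 3 to 6 for Old against Adult, PDX against Old and PDX against Adult. The shares of all genes are not given for these alternatives, so the counts cannot be set against a background. Between Old and Adult the median log2 fold change of the members ranged from -0.021 to 0.162 over the alternatives, beside 0.031 in the main fit. The highest value came from limma voom with sample weights. In every comparison the median stayed within 1 SD of the spread between mice, a wide band that does not measure the uncertainty of this median. The replicate numbers did not pair the mice, since same-numbered mice are different animals and their deviations correlated at -0.168 on average between Old and Adult, 0.092 between PDX and Old and 0.031 between PDX and Adult. With a replicate block, 0 members passed in each comparison, and 237, 0 and 316 of all genes did. Depth limits Psma8 and Psmc3ip, with 14 to 73 and 1 to 53 counts per mouse, and Psmb11, which was not testable.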
